A study of Mus musculus with 6 samples.

Results

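The solute carriers examined here are the mouse genes whose symbols begin with Slc and a family number, or with Slco for the organic anion polypeptides. They were taken from a deposited table of genes that differed between 2 ovarian tumour cell lines. Of the 7320 genes in that table, 136 fitted the naming rule, and they belong to 40 families, 15 of which had a single listed gene. The naming rule uses no measured value, but the table lists only genes that its authors had called. GENCODE release M21 holds 385 protein-coding genes with such symbols, and the others were not analysed here. All 136 are protein coding and lie where that release places their identifiers. One of them, Slc9a3r1, encodes a scaffold protein that binds exchangers of family 9 and is not itself a carrier.

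RNA came from ID8 and KMF cells grown for 5 days as tumorspheres, which are floating cell clusters, in serum-free PromoCell XF medium. ID8 is a spontaneously immortalised clonal line from C57Bl6 mouse ovarian epithelium. KMF, which the labels call ID8-IP, was recovered from the ascites of mice carrying ID8 cells and then expanded without anchorage. Each condition is thus 1 line, with neither drug nor engineered allele, and 3 libraries were made per line at passages 23, 24 and 35 for ID8 and 14, 17 and 22 for KMF. Every KMF library came from a lower passage than any ID8 library, so line and passage cannot be told apart, and p-values measure only the spread between these libraries.

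Solute carriers move nutrients, ions, metals, vitamins and metabolites across the plasma membrane and the membranes of mitochondria, lysosomes, endoplasmic reticulum and Golgi. They are numbered by sequence, so a family mostly shares a class of substrate. Family 1 and family 7 carry amino acids, family 2 carries hexoses, family 16 carries lactate and other monocarboxylates, families 30 and 39 move zinc, and family 25 lines the inner mitochondrial membrane. Some work only in complexes. The amino acid exchangers Slc7a5, Slc7a6 and Slc7a7 need the heavy chain Slc3a2 to reach the cell surface, and Slc16a3 needs the glycoprotein basigin.

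Libraries held between 23108407 and 33212313 fragments on genes. Of 18 markers fixed for ovarian epithelium and mesothelium, 13 were listed, and their summed level ran from 304 to 424 FPKM (the authors' count of fragments per kilobase of gene, scaled to the library total) in ID8 and from 222 to 289 in KMF. The mesothelial genes Wt1 and Msln were present in every library, and 10 of the 13 were lower in KMF while Msln was higher. Of 14 leukocyte markers only Kit and Cd74 were listed, summing to 5.29 to 11 FPKM in ID8 and 0.306 to 1.71 in KMF. Markers of any type that are not listed may be expressed alike in both lines, so their lack here does not show that such cells were absent. Of 12 endothelial and stromal markers 6 were listed, with sums of 77.9 to 109 FPKM in ID8 and 13.5 to 26.1 in KMF, most of it Dcn. The endothelial receptor gene Kdr was scarce in both lines, with 2, 10 and 7 counts in ID8 and none in KMF, and was not fitted. The part of such cells in the carrier results was not tested. In bulk RNA, fewer cells of a type and less RNA per cell cannot be told apart.

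More solute carrier genes were lower than higher in KMF. With edgeR's quasi-likelihood test, 134 of the 136 genes could be fitted, and 50 were higher and 75 lower at an adjusted p below 0.05, while 9 did not pass. The share called was set by how the table was made, since the authors listed only genes they had called themselves, and 92.9% of all 6967 fitted genes passed the same test (45.4% higher and 47.5% lower). What the data describe is therefore direction and size. Among called genes, 40.0% of the carriers were higher in KMF against 48.9% of all listed genes. The median log2 fold change (KMF over ID8) was -0.41 over the carriers and -0.23 over all fitted genes. At least 2-fold changes were called upward for 20 carriers and downward for 40, beside 18.0% and 22.5% of all fitted genes. Library-scaled counts of the lines did not overlap for 132 of the 136, beside 96.5% of all listed genes. In 9 carriers every library of a line held 3 counts or fewer, beside 7.06% of all listed genes, and for these a ratio or bound of the counts replaces the fitted value. Exons of 9 carriers overlap a protein-coding gene by 50 bases or more, as given beside each. Another 26 overlap only noncoding genes or pseudogenes, by 1165 bases in Slc30a7, 922 in Slc43a2, 919 in Slc35b4 and 635 in Slc7a2, and Slc2a1, Slc6a6, Slc20a1, Slc25a37, Slc29a1, Slc30a1, Slc35e2, Slc38a10 and Slc44a3 are among the others. As the use of strand in counting is not known, the counts of all these carriers are uncertain to that extent.

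Direction varied with level. Of the 23 carriers with a mean of 1 FPKM or less over the 6 libraries, 21 could be fitted, and 4 were higher and 17 lower in KMF. All listed genes at such levels leaned the same way, with 283 higher and 656 lower. Among the 113 carriers above 1 FPKM, 46 were higher and 58 lower, or 44.2% higher among the called, beside 2881 higher and 2650 lower (52.1% higher) of all listed genes above 1 FPKM. The median log2 fold changes were -0.35 and 0.26, but in a table of called genes few values lie near 0, so a modest shift in direction moves a median across it. The 26 carriers above 30 FPKM split evenly into 13 higher and 13 lower, beside 59.3% higher among called genes of such levels.

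**Figure D1:**
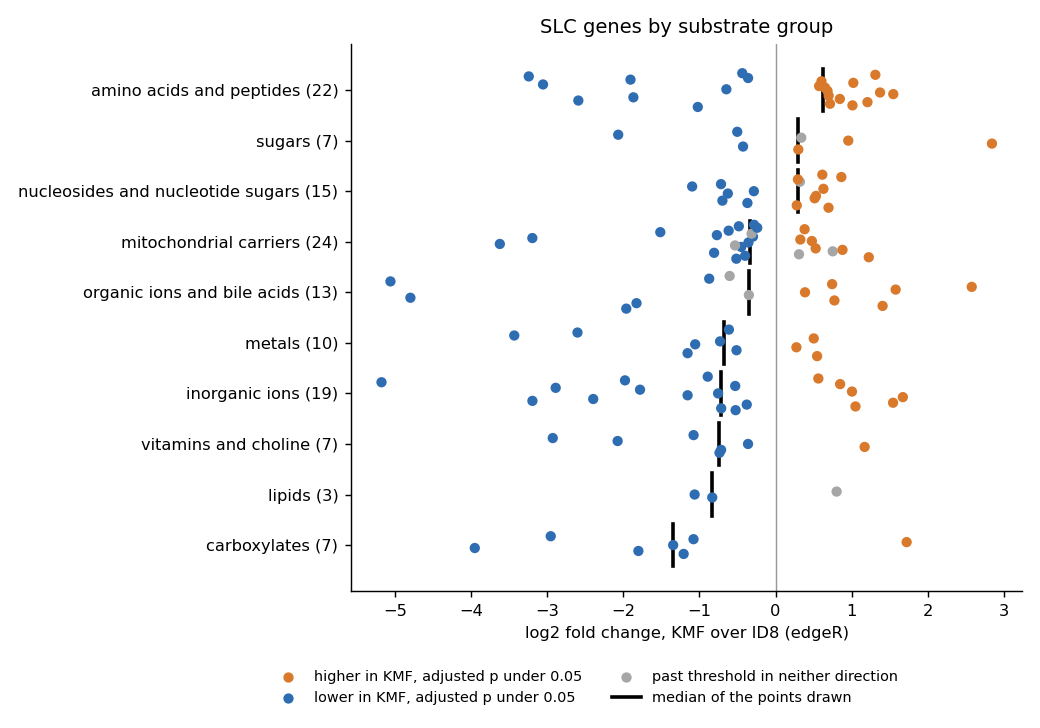
Each point is the log2 fold change (KMF over ID8, edgeR) of 1 of 127 solute carrier genes, placed in the row of its substrate group with the number drawn in brackets, and the black bar is the median of the points. The 9 genes close to 0 counts throughout 1 line or not fitted are left out; the amino acid row has its median right of 0 and the carboxylate, vitamin and metal rows have theirs left of 0.

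The substrate groups differed in direction. Amino acid and peptide families had 13 genes higher and 9 lower, with a median log2 fold change of 0.63. Nucleoside and nucleotide sugar families had 8 higher and 6 lower (median 0.29), and sugar families 4 higher and 3 lower (0.32). In every other group, genes lower in KMF were as many or more. The counts were 1 higher and 7 lower for carboxylates (median -1.57), 1 and 6 for vitamins and choline (-0.91 with the unfitted gene at its bound), 3 and 7 for metals (-0.67), 7 and 15 for inorganic ions (-0.73), 7 and 14 for mitochondrial carriers (-0.32), 0 and 2 for lipids (-0.83), and 6 and 6 for organic ions and bile acids (-0.60 with the unfitted gene at its bound). Such differences between groups of genes are descriptions, and no test compares them.

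Summed over all 136 genes, carrier RNA was nearly level between the lines, at 2491, 2475 and 2542 FPKM in ID8 replicates 1 to 3 and 2438, 2484 and 2466 FPKM in KMF. These sums overlap. Underneath, the amino acid group summed to 622 ± 12.9 FPKM (SD, n = 3 here and throughout) in ID8 and 788 ± 35.2 in KMF. A large part of that rise came from a single gene, the taurine carrier Slc6a6, given below. The nucleoside group summed to 342 ± 3.74 FPKM in ID8 and 446 ± 6.76 in KMF. Sums were lower in KMF for mitochondrial carriers (577 ± 14.8 against 501 ± 19.9 FPKM), inorganic ions (218 ± 6.26 against 159 ± 5.78), metals (210.4 ± 10.8 against 174 ± 2.65), vitamins and choline (205 ± 11.2 against 117 ± 6.65), carboxylates (99.6 ± 1.93 against 53.5 ± 6.40) and lipids (63.7 ± 12.4 against 34.5 ± 3.49). Sugar and organic ion sums overlapped between the lines.

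**Figure D2:**
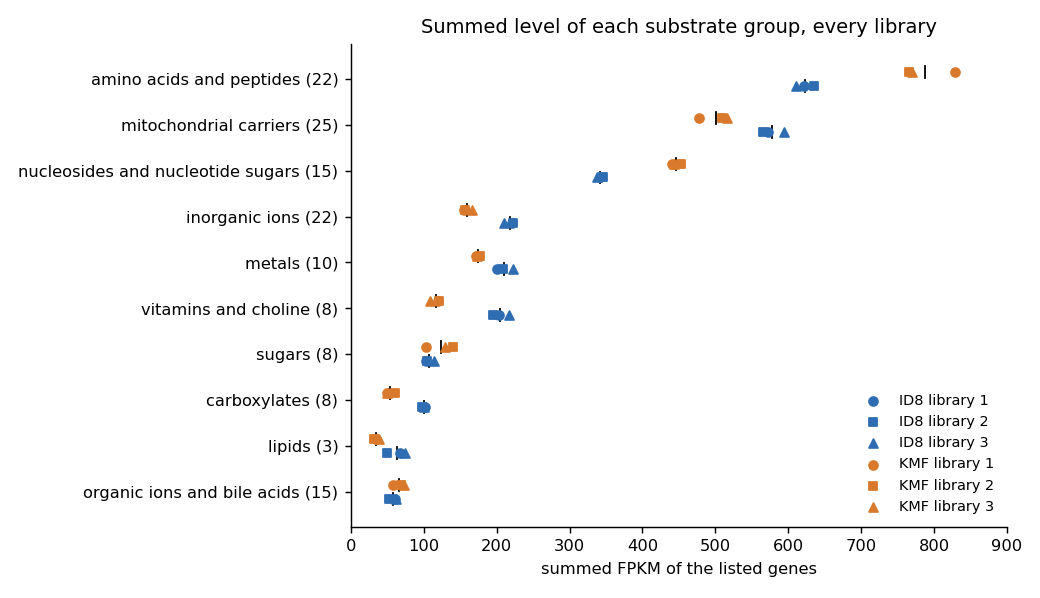
Points give the summed FPKM of the listed genes of each substrate group in each of the 6 libraries (horizontal axis, from 0), with the number of genes in brackets and a black bar at the mean of a line. The amino acid and nucleoside rows have all KMF points to the right of the ID8 points, and the sugar and organic ion rows overlap.

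Carriers of glutamine and small neutral amino acids were among those that rose in the amino acid group. Slc1a5 (ENSMUSG00000001918, chr7:16781346-16798274 in GRCm38, the build of all positions here), the exchanger ASCT2 that brings glutamine into many tumour cells, had 10.5, 10.1 and 8.15 FPKM in the ID8 libraries and 26.4, 25.9 and 29.5 in the KMF libraries. It rose by 1.55 ± 0.12 on the log2 scale (SE; adjusted p = 5.66e-05), the largest rise among the group's genes. Its relative Slc1a4, which exchanges alanine, serine and cysteine, rose from 16 ± 3.33 to 24.4 ± 1.16 FPKM (log2 fold change 0.65 ± 0.15, adjusted p = 0.0105). Of the sodium-coupled carriers, Slc38a1 went from 31.7, 34.3 and 25.1 FPKM in ID8 to 46.9, 44.5 and 52.7 in KMF, a rise of 0.70 ± 0.13 on the log2 scale (adjusted p = 0.00372). Slc38a2, which many cells induce when amino acids are short, went from 73.9, 82.7 and 71.4 to 115, 117 and 124 FPKM, a rise of 0.68 ± 0.09 (adjusted p = 0.000560). For none of these genes did the lines overlap, and together they summed to 132 ± 14.6 FPKM in ID8 and 218 ± 10.3 in KMF. That sum holds only genes that rose. The listed genes of family 38 split into 2 higher and 2 lower, and those that fell, Slc38a7 and Slc38a10, are given below.

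Carriers of arginine and lysine rose as well. Slc7a1, the widely expressed carrier CAT1, had 16.6, 17.6 and 14.3 FPKM in ID8 and 36.8, 29.3 and 28.9 in KMF, and rose by 1.01 ± 0.13 on the log2 scale (adjusted p = 0.000624). Slc7a2, which encodes the related CAT2, went from 22.1, 14.8 and 21.2 to 62.1, 45.0 and 39.1 FPKM and rose by 1.37 ± 0.21 (adjusted p = 0.00135). KMF replicate 1 was the highest library for both. Their sum was 35.5 ± 3.17 FPKM in ID8 and 80.4 ± 16.4 in KMF.

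Several other amino acid carriers fell. Slc7a5 (ENSMUSG00000040010, chr8:121881150-121907694), the leucine and tyrosine exchanger LAT1, was the most abundant amino acid carrier of ID8, with 104, 95.4 and 106 FPKM, and had 56.4, 46.8 and 43.0 FPKM in KMF. It fell by 1.02 ± 0.11 on the log2 scale (adjusted p = 0.000301). The heavy chain Slc3a2 had 89.0, 88.8 and 89.7 FPKM in ID8 and 72.4, 68.8 and 61.3 in KMF, a smaller log2 fold change of -0.36 ± 0.08 (adjusted p = 0.0105). Slc43a2, the facilitative carrier LAT4, fell from 13.9 ± 1.68 to 3.72 ± 1.27 FPKM (log2 fold change -1.87 ± 0.23, adjusted p = 0.000535). Its relative Slc43a1, known as LAT3, was lower too, at a level under 1 FPKM in both lines (0.251 ± 0.0820 and 0.0653 ± 0.0198 FPKM, adjusted p = 0.0101, or 0.0509 without KMF replicate 3). Slc16a10, an aromatic amino acid carrier of the monocarboxylate family, fell from 8.21, 8.53 and 7.68 to 3.33, 2.69 and 3.34 FPKM (log2 fold change -1.34 ± 0.12, adjusted p = 0.000102).

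Light chains that share the heavy chain Slc3a2 changed in opposite directions. Slc7a6 and Slc7a7 exchange cationic for neutral amino acids. Slc7a6 rose from 19.6, 20.1 and 18.1 FPKM in ID8 to 28.8, 28.4 and 28.1 in KMF (0.60 ± 0.07 on the log2 scale, adjusted p = 0.000522). Slc7a7 rose from 5.40, 6.05 and 7.0 to 10.6, 14.4 and 11.5 FPKM (1.02 ± 0.16, adjusted p = 0.00157), though its exons overlap those of Oxa1l on the other strand by 232 bases, and without known strand in the counting its value is uncertain. Expressed per unit of Slc3a2 in the same library, Slc7a5 was 1.16, 1.07 and 1.18 in ID8 and 0.779, 0.679 and 0.703 in KMF. Slc7a6 was 0.220, 0.226 and 0.202 in ID8 and 0.398, 0.413 and 0.459 in KMF by the same ratio of FPKM. Neither ratio overlapped between the lines.

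Outside these classes, the taurine carrier Slc6a6 (ENSMUSG00000030096, chr6:91684067-91759063) was the most abundant amino acid carrier of KMF. Its level was 71.2, 77.1 and 68.4 FPKM in ID8 and 177, 157 and 153 in KMF, a rise of 1.21 ± 0.10 on the log2 scale (adjusted p = 7.24e-05). The creatine carrier Slc6a8 rose from 15.8 ± 1.39 to 22.8 ± 2.46 FPKM (log2 fold change 0.57 ± 0.11, adjusted p = 0.00463). Slc6a9, a glycine carrier, had 17.2, 17.9 and 24.6 FPKM in ID8 and 27.0, 35.7 and 41.5 in KMF (0.84 ± 0.18, adjusted p = 0.00736), but it overlaps Ccdc24 exons on the other strand by 1429 bases and is uncertain. Slc36a1, a proton-coupled exporter of lysosomes, rose by 0.71 ± 0.14 on the log2 scale, while Slc38a7, a lysosomal glutamine and asparagine carrier, fell by 0.65 ± 0.10. Slc43a3 rose by 1.31 ± 0.20 (adjusted p = 0.00145), and despite its family it carries purine nucleobases.

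Among the group's other falls, the serotonin carrier Slc6a4 had 2.86, 4.36 and 1.60 FPKM in ID8 and 0.409, 0.294 and 0.215 in KMF, the largest fall of the group (-3.24 ± 0.44, adjusted p = 0.000860). Slc1a2, a glutamate carrier of glia, was at 0.184 ± 0.0919 FPKM in ID8 and 0.0223 ± 0.0130 in KMF. Slc7a4 fell from 3.34 ± 0.95 to 0.542 ± 0.0914 FPKM, with 554 bases of exon shared with P2rx6 on the other strand. The more abundant Slc38a10 fell by 0.44 ± 0.06 on the log2 scale (adjusted p = 0.00128).

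**Figure D3:**
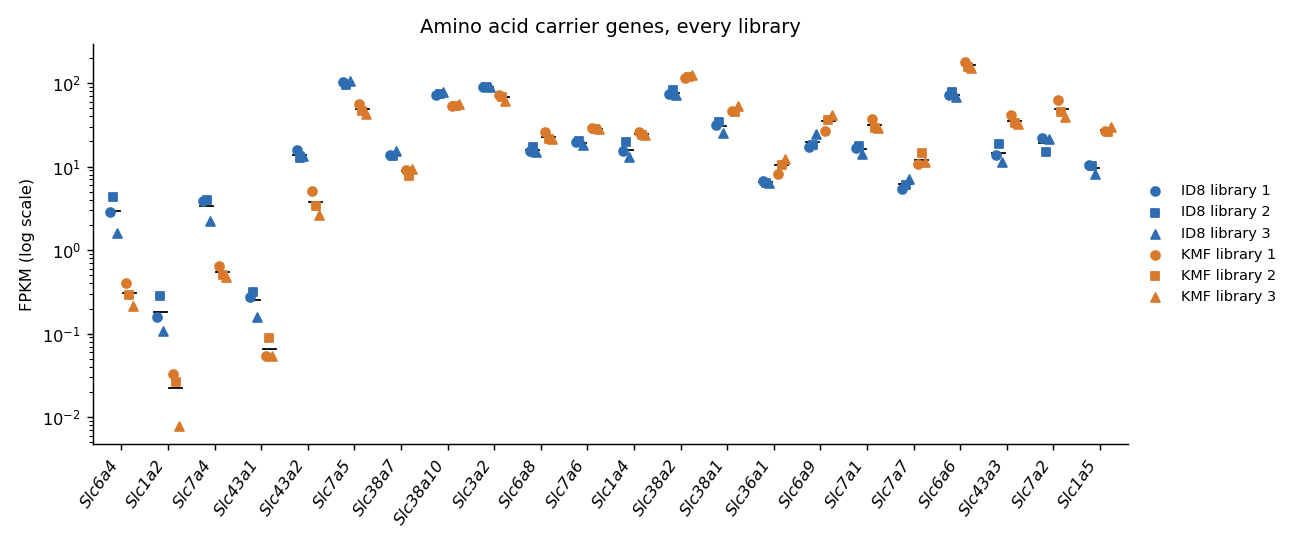
FPKM on a log axis is given for the 22 listed amino acid and peptide carrier genes in every library (ID8 blue, KMF orange, marker shape for the replicate, black bar for the mean of a line), ordered from the largest fall to the largest rise. The 9 genes on the left have all KMF points below the ID8 points, and the 13 on the right have them all above.

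In all 14 alternative analyses the group's 13 higher calls stood, and lower calls numbered 7 to 9. Slc43a1 lost its call without KMF replicate 3, and the alternatives with 7 fit fewer genes of low count. Genes that cells induce when amino acids are short were set beside these carriers from a list of 24. Of these, 14 were listed, with 12 higher and 2 lower in KMF. Among called genes, that is 85.7% higher, beside 48.9% of all listed genes. Pycr1, a proline synthesis enzyme, rose by 1.45 ± 0.19 on the log2 scale (adjusted p = 0.000664), and the transcription factor Atf4 rose from 118, 130.3 and 103 to 149, 166 and 162 FPKM. Cth, which makes cysteine from cystathionine, was among the exceptions, with 108, 62 and 35 counts in ID8 and 3, 1 and 2 in KMF. The list's genes summed to 349 to 438 FPKM in ID8 and 643 to 671 in KMF.

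The glucose carrier gene Slc2a1 and the lactate carrier gene Slc16a3 were higher in KMF, with a wide spread between libraries. Slc2a1 (ENSMUSG00000028645, chr4:119108711-119137330), the basal glucose carrier GLUT1, had 20.8, 28.4 and 28.3 FPKM in ID8 and 31.7, 61.3 and 53.2 in KMF, and rose by 0.95 ± 0.24 on the log2 scale (adjusted p = 0.0145). KMF replicate 1 lay close to the upper ID8 libraries, and without ID8 replicate 1 the adjusted p was 0.0556. Slc16a3 (ENSMUSG00000025161, chr11:120948480-120960868), the lactate exporter MCT4, had 1.43, 5.20 and 8.31 FPKM in ID8 and 11.2, 22.4 and 14.2 in KMF, from 183, 544 and 925 and 1146, 2241 and 2038 counts. It rose by 1.72 ± 0.55 (adjusted p = 0.0398). The lines did not overlap, yet the ID8 libraries alone spanned more than the gap between the lines, and the call was lost in 6 of the 14 alternatives, among them those without ID8 replicate 2, KMF replicate 2 or KMF replicate 3. Over all 14, the adjusted p ran from 0.0112 to 0.129.

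Promoter sequence is shown for these carriers because both are known targets of the hypoxia-inducible factors, which bind response elements with the core ACGTG. The windows are the 250 bases before each RefSeq start in GRCm38.p6, on the plus strand, written 5′ to 3′ with each match to that core in capitals.
Slc2a1, chr4:119108495-119108744: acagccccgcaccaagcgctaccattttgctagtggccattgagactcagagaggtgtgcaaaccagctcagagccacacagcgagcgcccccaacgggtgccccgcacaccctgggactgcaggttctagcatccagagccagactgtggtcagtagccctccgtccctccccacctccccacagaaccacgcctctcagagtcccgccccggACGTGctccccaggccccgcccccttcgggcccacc
Slc16a3, chr11:120948817-120949066: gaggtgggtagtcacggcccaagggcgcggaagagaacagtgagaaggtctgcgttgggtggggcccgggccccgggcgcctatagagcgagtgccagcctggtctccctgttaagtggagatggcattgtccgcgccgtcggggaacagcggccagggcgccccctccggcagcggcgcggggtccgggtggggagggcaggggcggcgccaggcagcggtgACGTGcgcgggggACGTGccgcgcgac
The Slc2a1 window holds 1 match and the Slc16a3 window 2. The RefSeq promoter table matched 98 of the 136 carriers, with 134 windows, and ACGTG on either strand was in 22.4% of them, beside 16.6% of all 32851 windows. The E-box CACGTG, which contains that core, was in 11.2% of carrier windows and 6.02% of all. TGCNCNC, the core of the metal response element, was in 44.8% and 44.4%. TGATGNAAT, a form of the amino acid response element, was in 0 carrier windows and 0.816% of all. A match of letters is a description and no evidence of binding.

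Some glycolysis genes that were higher in KMF showed a like order of libraries to Slc16a3. Pfkp, a phosphofructokinase, had 5.40, 9.26 and 11.4 FPKM in ID8 and 22.3, 42.4 and 41.9 in KMF. Pkm had 488, 653 and 830.3 and 946, 1212 and 1116 FPKM, and Ldha, which makes lactate, had 257, 354 and 472 and 562, 735 and 698 FPKM. In each of these, as in Slc16a3, ID8 replicate 1 was lowest, ID8 replicate 3 was highest within its line, and KMF replicate 1 was lowest within its line. Of 21 fixed glucose and lactate genes, 11 were listed, with 4 higher and 7 lower in KMF. The 4 higher genes, which were Pfkp, Pkm, Ldha and the hexokinase gene Hk1, had this order, and 0 of the 7 lower ones did. How common this order was among all genes higher in KMF was not counted. Among the latter, Hk2 fell from 23.8, 25.7 and 24.6 to 14.1, 15.6 and 16.8 FPKM and Pfkm from 56.8, 51.4 and 57.4 to 36.3, 38.7 and 41.2 FPKM. Ldhb, the lactate dehydrogenase form of oxidative tissues, fell by 3.08 ± 0.11 on the log2 scale (adjusted p = 4.87e-06), and the glucose-responsive factor Mlxipl fell by 2.39 ± 0.29 (adjusted p = 0.000501).

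Slc16a3 was the only one of 8 listed family 16 genes to be higher. Slc16a4 had 13.5, 12.2 and 9.85 FPKM in ID8 and 1.39, 1.15 and 1.90 in KMF, a log2 fold change of -2.95 ± 0.22 (adjusted p = 5.13e-05). Slc16a5, Slc16a13 and Slc16a11 fell as well, with log2 fold changes of -1.21 ± 0.27, -1.80 ± 0.28 and -3.95 ± 0.63. Slc16a9, a carrier linked to carnitine, had 57, 24 and 60 counts in the ID8 libraries and none in KMF, which makes it at least 15.2-fold lower against a floor of 3 counts per library. The family's listed lactate exporter therefore differed in direction from its 7 other listed genes. Embigin, a partner glycoprotein of monocarboxylate carriers (Emb), fell from 245 ± 38.7 to 149 ± 22.9 FPKM.

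Other sugar carriers were scarcer or moved little. Slc2a4, the insulin-responsive GLUT4, was barely detected, with 5, 0 and 4 counts in ID8 and 31, 14 and 18 in KMF (adjusted p = 0.0168, or 0.0583 without KMF replicate 1). Slc2a10 had no count in ID8 and 11, 15 and 16 in KMF, at least 4.66-fold higher against the floor of 3 counts per library. The urate carrier Slc2a9 fell by 0.43 ± 0.12 on the log2 scale (adjusted p = 0.0236), but the call was lost without any of 5 libraries. Slc50a1 rose from 32.6 ± 2.32 to 39.0 ± 2.87 FPKM, with an adjusted p of 0.0308 that ran up to 0.181 and was lost in 10 alternatives, 4 of them without 1 library. Slc45a4 fell from 39.4, 34.1 and 38.4 to 24.7, 26.4 and 25.7 FPKM (adjusted p = 0.00126). Slc37a2, a sugar phosphate carrier, fell by 2.07 ± 0.37 on the log2 scale, and Slc45a3 overlapped between the lines (adjusted p = 0.0865).

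**Figure D4:**
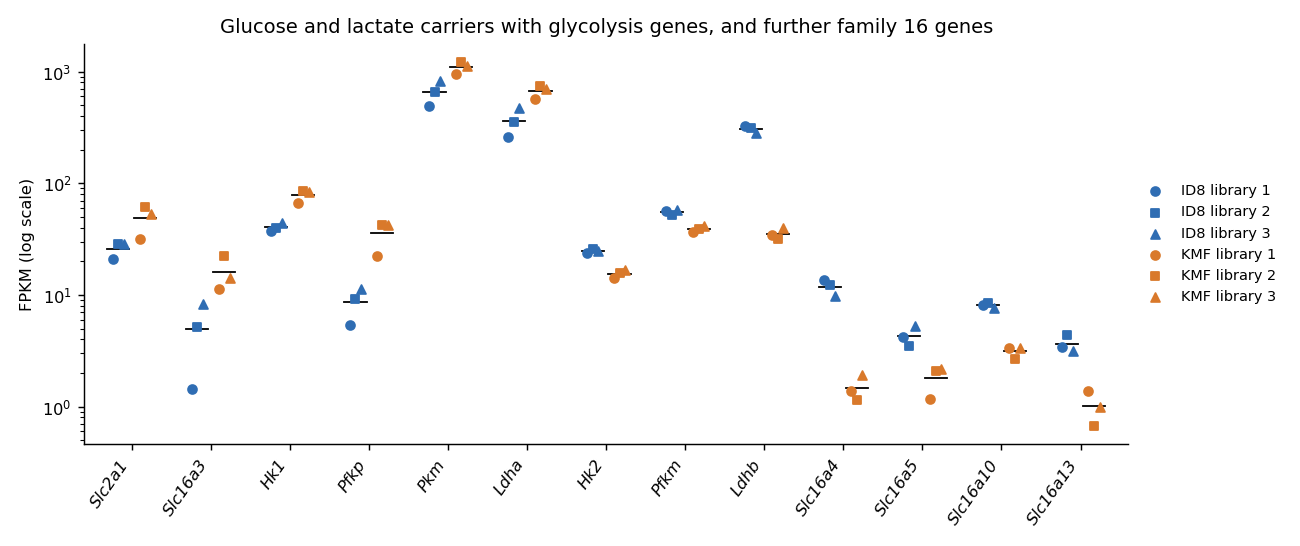
FPKM on a log axis in every library is shown for Slc2a1, Slc16a3, 7 glycolysis genes and 4 further family 16 carriers (ID8 blue, KMF orange, marker shape for the replicate, black bar for the mean of a line). Slc16a3, Pfkp, Pkm and Ldha share a low ID8 replicate 1, and the family 16 genes on the right have all KMF points below the ID8 points.

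Metal carriers were mostly lower in KMF, exporters of iron and zinc among them. Slc40a1 (ENSMUSG00000025993, chr1:45908068-45926523) encodes ferroportin, the only known iron exporter of mammals. Its level was 4.33, 5.66 and 5.16 FPKM in ID8 and 0.853, 0.837 and 0.744 in KMF, a log2 fold change of -2.60 ± 0.17 (adjusted p = 3.16e-05). Slc30a1, the zinc exporter of the plasma membrane, fell from 33.1, 33.3 and 45.0 to 14.4, 17.5 and 20.3 FPKM (-1.06 ± 0.15, adjusted p = 0.00123). The copper importer Slc31a1, known as CTR1 and studied as a route for cisplatin, had 27.1, 25.7 and 35.6 FPKM in ID8 and 15.7, 17.5 and 18.7 in KMF, a log2 fold change of -0.73 ± 0.13 (adjusted p = 0.00281). None of these overlapped between the lines.

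Zinc importers of family 39 did not move as a block. Slc39a10 fell from 28.1, 31.8 and 20.7 to 17.3, 15.9 and 18.2 FPKM (-0.61 ± 0.15 on the log2 scale, adjusted p = 0.0156), a call lost without ID8 replicate 1 or KMF replicate 2 (up to 0.0601). Slc39a11 fell by 0.51 ± 0.11, and Slc39a4, an intestinal zinc importer, went from 0.465 ± 0.276 to 0.0426 ± 0.0625 FPKM (adjusted p = 0.0190, up to 0.0821 without 1 library). Slc39a1, the most abundant metal carrier here, had 49.3, 51.5 and 53.1 FPKM in ID8 and 64.3, 63.0 and 53.6 in KMF. Its difference of 0.27 ± 0.09 had an adjusted p of 0.0497 and was not called in 12 of the 14 alternatives. Zinc carriers of the secretory pathway rose, Slc30a5 from 26.5 ± 1.49 to 36.5 ± 3.33 FPKM (adjusted p = 0.00343) and Slc30a7 from 4.62 ± 0.203 to 6.57 ± 0.236 FPKM (adjusted p = 0.000996). The magnesium carrier Slc41a3 fell by 1.16 ± 0.21 on the log2 scale.

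Iron also enters mitochondria through Slc25a37, or mitoferrin-1, which rose from 2.05, 1.96 and 1.92 to 3.29, 4.64 and 5.55 FPKM (1.22 ± 0.18 on the log2 scale, adjusted p = 0.00141), while ferroportin fell. Of 23 fixed iron, zinc and copper handling genes 10 were listed, with 5 higher and 4 lower. Aco1, whose protein binds iron-responsive elements, rose by 1.11 ± 0.07 (adjusted p = 3.31e-05), and the copper pump Atp7b, at 2, 3 and 10 counts in ID8 and 10, 23 and 28 in KMF, rose as well (adjusted p = 0.0382). Ferritin chains split, with Fth1 at 2666 ± 113 FPKM in ID8 and 1866 ± 218 in KMF and Ftl1 at 1664 ± 146 and 2367 ± 330.3.

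Among carriers that fell, Slc44a3 and Slc46a1 of the vitamin and choline group had the lowest adjusted p-values of the edgeR test. Slc44a3 (ENSMUSG00000039865, chr3:121459529-121532344), a choline transporter-like protein, had 18.2, 17.6 and 20.8 FPKM in ID8 and 2.58, 2.05 and 2.59 in KMF. It fell by 2.93 ± 0.13 on the log2 scale with the lowest adjusted p of any carrier (8.16e-06). Slc46a1 (ENSMUSG00000020829, chr11:78465697-78472059), the proton-coupled folate carrier, had 34.5, 34.7 and 39.9 FPKM in ID8 and 8.90, 7.50 and 8.78 in KMF, a log2 fold change of -2.07 ± 0.10 (adjusted p = 1.19e-05). Slc44a2, the abundant relative of Slc44a3, fell from 114, 103 and 114 to 66.6, 68.6 and 60.6 FPKM (-0.72 ± 0.08, adjusted p = 0.000342). For Slc44a3 and Slc46a1 the libraries of a line lay close together and the lines were far apart. The fall of Slc44a2 was smaller, without overlap between the lines.

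Only the ascorbate carrier Slc23a2 rose in this group, from 9.60, 8.62 and 9.93 FPKM in ID8 to 20.6, 23.2 and 17.7 in KMF (1.17 ± 0.11 on the log2 scale, adjusted p = 0.000168). The riboflavin carrier Slc52a2 fell from 11.6 ± 0.877 to 6.78 ± 0.971 FPKM, and its relative Slc52a3 had 16, 16 and 7 counts in ID8 and none in KMF (at least 4.26-fold lower against the floor of 3 counts per library). The thiamine carrier Slc19a2 had 13.8, 16.1 and 18.1 FPKM in ID8 and 12.1, 12.1 and 12.1 in KMF (adjusted p = 0.0294). That call was lost without any of 5 libraries, all but ID8 replicate 1 (up to 0.110). Slc46a3, a lysosomal carrier, fell by 1.08 ± 0.33 on the log2 scale, and was not called without any of 4 libraries (adjusted p up to 0.122).

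**Figure D5:**
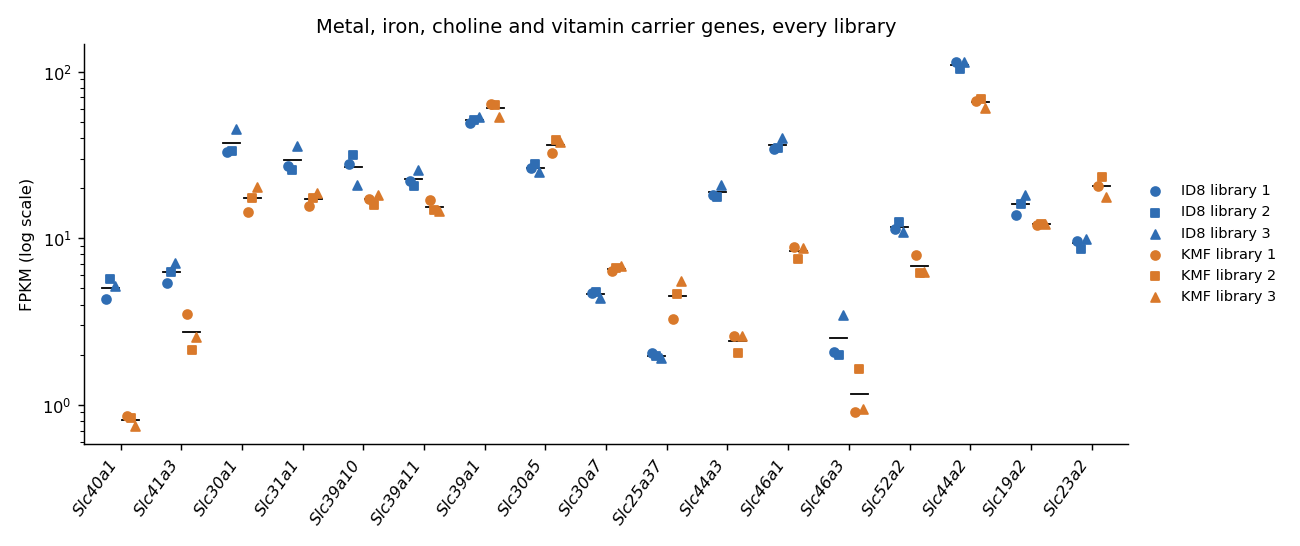
FPKM on a log axis in every library is shown for 9 metal carriers, mitoferrin-1 (Slc25a37) and 7 vitamin and choline carriers (ID8 blue, KMF orange, marker shape for the replicate, black bar for the mean of a line). Slc40a1, Slc44a3 and Slc46a1 have the widest gaps between the lines, and Slc39a1 has the narrowest.

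Mitochondrial carriers of family 25, the largest family with 25 listed genes, had the smallest median change in size of the substrate groups. Their median absolute log2 fold change was 0.52, against 0.84 over all carriers and 0.79 over all fitted genes. Lower calls numbered 14 and higher calls 7, with 4 genes past the threshold in neither direction. Slc25a3, which brings phosphate for ATP synthesis, was the most abundant listed carrier of ID8, with 137, 143 and 126 FPKM there and 107, 110.5 and 118 in KMF. Its difference of -0.24 ± 0.08 stood at the threshold (adjusted p = 0.0498) and was lost without any of 5 libraries, all but ID8 replicate 3 (up to 0.165). Slc25a11, the exchanger of oxoglutarate and malate, fell from 86.5, 84.0 and 84.9 to 57.9, 64.2 and 59.7 FPKM (-0.45 ± 0.07 on the log2 scale, adjusted p = 0.00152), with 189 bases of exon shared with Rnf167 on the other strand. Without any 1 of 5 libraries the lower calls of this family numbered only 8 or 9.

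Carriers of intermediary metabolites moved by small amounts. The citrate carrier Slc25a1 had 38.1, 40.1 and 44.7 FPKM in ID8 and 33.6, 33.0 and 30.8 in KMF (log2 fold change -0.30 ± 0.09, adjusted p = 0.0285), a call lost without any library but ID8 replicate 1 (up to 0.141). The dicarboxylate carrier Slc25a10 rose from 49.2, 52.3 and 48.1 to 60.0, 58.7 and 63.6 FPKM (0.33 ± 0.07, adjusted p = 0.00853, or 0.0524 with upper quartile scaling). Slc25a15, the ornithine carrier, rose by 0.53 ± 0.12, and the branched-chain amino acid carrier Slc25a44 by 0.48 ± 0.09 on the log2 scale. The aspartate and glutamate exchanger Slc25a12 fell by 0.40 ± 0.11 (adjusted p up to 0.0858 without 1 library). Glutamate carriers proper were unlike each other. Slc25a18 fell from 2.58, 2.55 and 2.91 to 0.186, 0.190 and 0.242 FPKM, the largest fall of the family (-3.62 ± 0.28, adjusted p = 6.52e-05), while Slc25a22 was 0.38 ± 0.12 on the log2 scale and its call was lost in 11 of the 14 alternatives.

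Carriers of ATP-Mg and phosphate went opposite ways, with Slc25a24 rising from 30.8 ± 1.17 to 55.1 ± 5.37 FPKM (adjusted p = 0.000176) and Slc25a23 falling from 22.4 ± 1.33 to 14.2 ± 1.07 FPKM (adjusted p = 0.000865). Slc25a45 fell by 1.51 ± 0.17, Slc25a34 fell by 3.19 ± 0.61, Slc25a43 fell by 0.81 ± 0.18, the pyrimidine nucleotide carrier Slc25a33 fell by 0.77 ± 0.15 and Slc25a30 fell by 0.52 ± 0.10 on the log2 scale. Smaller falls of Slc25a16 (-0.28 ± 0.08) and the S-adenosylmethionine carrier Slc25a26 (-0.48 ± 0.15, with 144 bases of exon shared with Lrig1 on the other strand) lost their calls without 1 library, any of 6 for the former and any of 4 for the latter. The 4 that did not pass were Slc25a42 for coenzyme A (-0.53, adjusted p = 0.0850), the NAD carrier Slc25a51 (-0.32, 0.0563), the folate or FAD carrier Slc25a32 (0.31, 0.0746) and Slc25a35 (0.75, 0.119). Slc25a51 was called in 5 of the 14 alternatives, Slc25a42 in 2, and Slc25a32 and Slc25a35 in 1 each. Slc25a35 overlapped between the lines and shares 1151 bases with Rangrf exons. Slc25a48 had 2 counts in all of ID8 and 57 in KMF, a ratio of 28.3 with a 95% counting interval from 7.48 to 239.

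Several large falls in the inorganic ion families were at low level. Slc9a2, a sodium and proton exchanger of epithelia, had 3.12, 3.44 and 0.669 FPKM in ID8 and 0.279, 0.211 and 0.276 in KMF (-3.19 ± 0.60 on the log2 scale, adjusted p = 0.00411). ID8 replicate 3 was far below the other ID8 libraries but above every KMF library. Slc9b2 fell by 2.89 ± 0.34, the sodium and calcium exchanger Slc8a1 fell by 1.98 ± 0.29, the neuronal potassium and chloride exporter Slc12a5 fell by 1.78 ± 0.34 and the chloride carrier Slc26a9 fell by 5.18 ± 0.78. Slc4a4, the sodium bicarbonate carrier NBCe1, had 51, 31 and 17 counts in ID8 and 3 in all of KMF, a ratio of 33.3 with a 95% counting interval from 11.1 to 164. Slc26a7 had 20, 14 and 14 counts in ID8 and none in KMF, at least 5.19-fold lower against the floor of 3 counts per library.

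Among the abundant ion carriers, Slc12a7, a potassium and chloride exporter, fell from 64.6, 60.5 and 63.8 to 31.5, 37.5 and 39.9 FPKM (-0.75 ± 0.09 on the log2 scale, adjusted p = 0.000526). The scaffold Slc9a3r1 fell from 52.9, 55.9 and 50.9 to 30.2, 28.8 and 35.8 FPKM (-0.71 ± 0.10, adjusted p = 0.000800). The anion exchanger Slc4a2, which shares 1141 bases of exon with Fastk on the other strand, fell by 0.38 ± 0.10, and was not called without any of 4 libraries (adjusted p up to 0.0938). The phosphate importer gene Slc20a1 had 10.1, 12.8 and 8.24 FPKM in ID8 and 7.20, 6.21 and 7.67 in KMF (adjusted p = 0.0472), a call lost without any library but ID8 replicate 3 (up to 0.171). Slc26a11 fell by 0.89 ± 0.17 and the endosomal exchanger Slc9a7 fell by 0.53 ± 0.13. Falls of Slc24a1 and Slc26a8, both under 1 FPKM, lost their calls without any of 3 and of 5 libraries.

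Rises in the ion families were fewer. Slc4a8, a sodium-driven bicarbonate and chloride exchanger (ENSMUSG00000023032, chr15:100761747-100823968), went from 2, 0 and 0 counts in ID8 to 79, 51 and 194 in KMF, a ratio of 161 with a 95% counting interval from 44.1 to 1333. Its level in KMF was still only 0.322 ± 0.158 FPKM. Slc4a7, another bicarbonate importer, rose from 8.24, 8.45 and 7.79 to 11.5, 11.8 and 11.9 FPKM (0.56 ± 0.07 on the log2 scale, adjusted p = 0.000596). Slc9a5 rose from 0.544 ± 0.0680 to 1.69 ± 0.256 FPKM (1.67 ± 0.19, adjusted p = 0.000389). Slc8b1, which takes calcium out of mitochondria, rose from 6.96 ± 0.281 to 13.6 ± 0.978 FPKM, the sulfate carrier Slc26a2 rose by 1.05 ± 0.18 and Slc12a8 by 1.54 ± 0.29 on the log2 scale. Slc4a11 was higher by 0.85 ± 0.26, with the call lost in 9 of the 14 alternatives.

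Pumps that set the sodium, calcium and proton gradients these carriers use were read from a list of 20, of which 12 were listed, with 4 higher and 6 lower. Atp1b2, a sodium pump beta subunit, fell from 29.7, 26.3 and 34.7 to 0.407, 0.208 and 0.305 FPKM (-6.58 ± 0.21 on the log2 scale, adjusted p = 3.09e-06). The far more abundant Atp1b1 was at 438 ± 7.34 FPKM in ID8 and 268 ± 47.5 in KMF, and Atp1b3 at 57.9 ± 3.06 and 97.0 ± 6.80.

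Nucleoside and nucleotide sugar carriers leaned upward through a few abundant genes. Slc29a1 (ENSMUSG00000023942, chr17:45585200-45599606), the equilibrative nucleoside carrier ENT1 that also admits gemcitabine, had 111, 109 and 95.4 FPKM in ID8 and 162, 156 and 157 in KMF, and rose by 0.63 ± 0.08 on the log2 scale (adjusted p = 0.000747). Its relative Slc29a3 fell by 0.70 ± 0.13, and Slc29a2 fell by 0.63 ± 0.16, the latter not called without ID8 replicate 1 or KMF replicate 3 (adjusted p up to 0.0655). In family 35, Slc35b1 of the endoplasmic reticulum rose from 47.9, 54.6 and 43.6 to 61.5, 80.2 and 76.1 FPKM (0.61 ± 0.13, adjusted p = 0.00630), and Slc35e4 rose from 20.9 ± 1.21 to 37.0 ± 3.39 FPKM (0.86 ± 0.09, adjusted p = 0.000230). The UDP-N-acetylglucosamine carrier Slc35a3 rose by 0.70 ± 0.08, Slc35a4 by 0.53 ± 0.07 and Slc35e3 by 0.51 ± 0.10 on the log2 scale. Slc35a3 shares 275 bases of exon with Gm43191, and Slc35a4 shares 152 with Apbb3, so both are uncertain.

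Falls in family 35 were led by Slc35g1, from 17.1, 16.4 and 21.4 to 8.17, 8.64 and 8.15 FPKM (-1.10 ± 0.11 on the log2 scale, adjusted p = 0.000201), followed by Slc35e2 (-0.72 ± 0.11), Slc35b4 (-0.37 ± 0.07) and Slc35f6 (-0.28 ± 0.08, not called without any of 4 libraries). The GDP-fucose carrier Slc35c1 and Slc35f2 were higher by 0.28 ± 0.09 and 0.29 ± 0.09, each with the call lost in 12 of the 14 alternatives. Slc35c2 overlapped between the lines (adjusted p = 0.0607).

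Organic ion carriers changed in both directions at mostly low levels. Slco2a1 (ENSMUSG00000032548, chr9:102988712-103096002), the prostaglandin carrier, rose from 0.924, 0.808 and 0.810 to 4.45, 5.82 and 4.50 FPKM, the largest rise of the group (2.58 ± 0.15 on the log2 scale, adjusted p = 2.31e-05). Slc17a9, which loads ATP into vesicles, had 7.53, 6.39 and 10 FPKM in ID8 and 10.7, 22.9 and 28.0 in KMF (1.41 ± 0.33, adjusted p = 0.0112), with KMF replicate 1 close to ID8 replicate 3. Slc22a15 rose by 1.58 ± 0.19 and Slc22a4, the ergothioneine carrier, by 0.77 ± 0.18, whereas the carnitine carrier Slc22a5 fell by 0.87 ± 0.12 on the same scale. Slc10a7 and Slc22a18 were higher by 0.39 ± 0.10 and 0.74 ± 0.23, with calls lost in 4 and 8 of the 14 alternatives.

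Leaving out genes with 3 counts or fewer in every library of a line, the largest fall of this group was in Slc22a17, a receptor for lipocalin-2, from 2.06, 1.26 and 1.32 to 0.0370, 0.0377 and 0.0525 FPKM (-5.06 ± 0.40 on the log2 scale, adjusted p = 6.97e-05). The urea carrier Slc14a1 fell from 2.16, 2.20 and 2.52 to 0.0116, 0.0708 and 0.140 FPKM (-4.80 ± 0.48, adjusted p = 0.000198). Slc47a2, a drug and toxin exporter, had 19, 22 and 30 counts in ID8 and none in KMF, at least 7.84-fold lower against the floor of 3 counts per library. Slc17a4 fell by 1.96 ± 0.42, and the vesicular monoamine carrier Slc18a1 fell by 1.83 ± 0.49, the latter not called without any of 3 libraries. Slc18b1, a vesicular polyamine carrier and the group's most abundant gene in ID8, did not pass at 16.6, 14.0 and 17.1 FPKM in ID8 and 13.6, 10.5 and 12.2 in KMF (adjusted p = 0.0532), but did in 9 of the 14 alternatives. Slc18a2 did not pass (adjusted p = 0.0702).

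Fatty acid transport proteins of family 27 numbered 3. Slc27a1 fell from 38.2, 25.9 and 38.2 to 17.6, 18.6 and 19.6 FPKM (-0.83 ± 0.14 on the log2 scale, adjusted p = 0.00262), and Slc27a6 from 27.0, 22.9 and 33.8 to 14.2, 9.73 and 15 FPKM (-1.06 ± 0.19, adjusted p = 0.00299). Slc27a3 was 0.80 ± 0.29 on that scale with overlapping libraries (adjusted p = 0.0631).

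Carriers that do not bear an Slc symbol were read from a list of 58, of which 25 were listed, with 10 higher and 13 lower and a median log2 fold change of -0.32. Sfxn4, a mitochondrial sideroflexin, fell from 4.14, 3.36 and 3.81 to 0.870, 1.14 and 1.07 FPKM (-1.83 ± 0.18 on the log2 scale, adjusted p = 0.000168). Spns2, which exports sphingosine 1-phosphate, fell from 118, 126 and 115 to 37.5, 42.7 and 39.7 FPKM (-1.54 ± 0.08, adjusted p = 1.63e-05). Partners and regulators of carriers came from a list of 22, of which 8 were listed, Slc3a2 among them, with 1 higher and 6 lower. The kinase gene Sgk3 fell by 1.48 ± 0.20 on the log2 scale (adjusted p = 0.000814), and Arrdc4, an arrestin that removes glucose carriers from the surface, fell by 0.94 ± 0.28 (adjusted p = 0.0317).

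By position, the carriers sat on 19 chromosomes. Chromosome 11 held 23 of them, 8 higher and 14 lower, where 27.2% of all called genes were higher in KMF. Chromosome 3 held 11, with 7 higher and 3 lower, where 74.9% of all called genes were higher. On chromosome 8, where 33.8% were higher, 5 carriers were higher and 4 lower. Chromosome 1 had 0 carriers higher and 6 lower, where 53.8% of all called genes were higher. Chromosome 5 had 2 higher and 5 lower, where 63.6% were higher. The 7 carriers of chromosome 15 divided into 3 higher, among them Slc38a1 and Slc38a2, 3 lower and 1 that did not pass, where 52.2% of all called genes were higher. Whether the position of a carrier accounts for its direction was not tested.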

How the data were processed

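Poly-A RNA of 3 ID8 and 3 KMF tumorsphere samples was made into libraries with the NEBNext Ultra kit and sequenced as paired-end reads by a service provider. Per the study's methods, the authors mapped reads with TopHat2 and compared the lines with DESeq2, whereas the submitters' processing notes name CASAVA 1.8, STAR 2.5, DESeq2 and the build mm10. Which aligner made these values is not settled by the sources, and the counting tool, annotation release and use of strand are not given in the sources used here.

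Counts in the deposited table are raw reads of each gene in each library. The authors' FPKM scales a gene's fragments to its length and the library total, so it can be compared between genes. The deposited signal columns hold each line's mean of counts divided by the authors' size factors and were not used. The authors' log2 fold change, p-value and adjusted p-value columns hold their own comparison, and their values were not used, except that the ratio of adjusted to raw p-value by rank gave 17359 genes tested. The largest adjusted p-value in the deposited table was 0.0499, so it lists only genes the authors had called. Genes outside it were not analysed here. A total of 14 symbols turned into dates were restored by identifier.

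Library totals were recovered from counts, FPKM and lengths, and a floor of 3 counts was 0.0903 to 0.13 CPM (counts scaled to the library total). Counts were fitted on the whole table in R 4.3.3 by the two-sided quasi-likelihood test of edgeR 4.0.16, with TMM scaling, filterByExpr and no covariate, with Benjamini-Hochberg adjustment over 17359 genes, those outside the table ranking below. An adjusted p below 0.05 is termed called. Counting intervals are exact at 95% and, like floors, cover counting error only, since reads carried no molecular identifiers. In simulated data with 7320 genes for KMF against ID8, 98.5% of 200 genes changed by 1 log2 unit were recovered with 4 false calls. Those 200 were the only genes changed, whereas 92.9% of the 6967 fitted genes of the deposited table were called. How well changes of the carriers themselves are recovered was not tested. Libraries of a line differed beyond counting noise, with a chi-square per degree of freedom of 19.9 or more, so none was treated as a repeat run of another. That value compares libraries with counting noise alone and does not judge their quality. All libraries were kept. Alternatives used limma 3.58.1 on log2 of FPKM plus 1 or 0.1, DESeq2 1.42.0, other scalings and filters, a replicate block and the omission of each library. Exon overlaps of at least 50 bases were read from GENCODE M21, and promoters from RefSeq with GRCm38.p6. Tables were handled with pandas 2.3.3 under Python 3.11.15, with scipy 1.17.1 for intervals, numpy 2.4.6 for arrays and matplotlib 3.10.9 for plots.

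The genes, substrate groups and lists were chosen with earlier results of these data known. Values per library or per line are given for 24 listed landmark genes, for the called gene with the largest rise and fall and the 2 most abundant genes of each group, and for genes with 3 counts or fewer in a line and 100 or more in a library of the other. Of each list, the 2 called genes with the largest change are named. Other genes named were chosen after their values were seen. Some genes that this rule or the lists would name are not reported here.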

Additional observations from a re-analysis of the deposited data

How the results depend on the processing

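Over 14 alternatives no fitted carrier changed direction, and 94 of the 125 called genes were called in every alternative that could fit them. Of the 9 fitted genes that did not pass, 8 gained a call in at least 1 alternative. Higher calls ran from 40 to 50 and lower calls from 59 to 81, and the median log2 fold change from -0.52 to -0.35. Upper quartile scaling moved the median of all fitted genes from -0.23 to -0.35, and that of the carriers to -0.52 with 40 higher and 79 lower calls. Higher carboxylate calls were 0 with upper quartile scaling, with DESeq2 and with at least 10 counts in every library, where Slc16a3 was lost. Limma on log2 of FPKM plus 1 or 0.1, which fits only genes above 1 FPKM, left 8 lower calls among inorganic ions and 1 higher call among sugars. The filter of at least 10 counts, which removes scarce genes, left 3 lower calls among organic ions and 1 higher call among sugars. DESeq2 gave 1 higher call among lipids, Slc27a3. Library totals alone, upper quartile scaling and DESeq2 each lost the higher calls of Slc35c1 and Slc35f2. Higher calls then no longer outnumbered lower ones among nucleoside and nucleotide sugar carriers. Leaving out each library in turn gave 42 to 47 higher and 60 to 68 lower calls in all, 8 to 11 lower calls among mitochondrial carriers, 2 to 4 higher among sugars, 0 to 1 higher among carboxylates and 0 to 1 higher among lipids. With 3 libraries per line, genes of few counts have wide errors, and a gene with no count in a line has only a bound.

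A replicate block, pairing libraries by their shared number, gave 42 higher and 65 lower calls and lost 19 calls. The numbers were not taken as pairs, since same-numbered libraries deviated from their line means with correlations of 0.07, -0.09 and 0.11 across 6967 genes, and ID8 replicate 2 correlated best with KMF replicate 1 (0.18).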

Other observations

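Some carriers that were lower in KMF also varied within ID8, and these were picked after their values were seen. Slc9a2 had 3.12, 3.44 and 0.669 FPKM in ID8 replicates 1, 2 and 3, the serotonin carrier Slc6a4 had 2.86, 4.36 and 1.60, the monoamine carrier Slc18a1 had 1.88, 2.46 and 0.776 and the chloride carrier Slc26a9 had 0.587, 0.743 and 0.271. ID8 replicate 3 was the lowest of its line in each. Of the markers, the mesothelial genes Upk3b (25.2, 41.8 and 8.97 FPKM in ID8) and Lrrn4 (1.96, 2.45 and 0.734 FPKM) and the epithelial cadherin Cdh1 (9.69, 10.9 and 5.29 FPKM) were also lowest in that library, which came from passage 35, against passages 23 and 24. Each of these carriers and markers was lower still in every KMF library. Of the 13 listed ovarian epithelial and mesothelial markers, ID8 replicate 3 was the lowest of its line for 10, and the KMF libraries were all lower still for 7 of them. Msln (33.1, 39.5 and 30.4 FPKM in ID8 and 102, 79.3 and 93.0 in KMF) was lowest of ID8 in that library but higher in every KMF library. Upk1b (8.03, 14.4 and 6.01 FPKM in ID8) was lowest there too, and with 14.7 ± 1.96 FPKM in KMF it did not pass the test between the lines. Nr2f2 (10.5, 9.70 and 11.4 FPKM in ID8) was highest in that library and Gata6 (80.9, 63.8 and 68.3 FPKM in ID8) was lowest in ID8 replicate 2. Other carriers with large falls were level within ID8, such as Slc25a18 at 2.58, 2.55 and 2.91 FPKM and Slc44a3 at 18.2, 17.6 and 20.8 FPKM. The part of passage or of cell state in this variation was not tested.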
